A study of Mus musculus with 24 samples.

Results

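The 6 genes described here, Ms4a4a, Ms4a4c, Ms4a6b, Ms4a6c, Ms4a6d and Ms4a7, encode membrane proteins of the MS4A family and were picked by gene name from the 53715 genes of the table. Their RNA was measured by RNA-sequencing of 24 libraries from peripheral blood (PB) monocytes of C57BL/6 mice, in 6 groups of 4 libraries. Ly6Chi cells, the inflammatory monocytes, were sorted as Lin-CD11b+GFP+CD115+Ly6ChiCD43-MHC-II- cells. Ly6Clo cells, from the gate that holds the patrolling monocytes, were sorted as Lin-CD11b+GFP+CD115+Ly6Clo/-MHC-II- cells. In N2ΔMy mice, summed macrophage and Ly6Chi markers were higher in this gate than in wt mice, as given below. The mice were 8 to 10 weeks old, and all carried the Cx3cr1 GFP/+ reporter. The control genotype is written wt. In the other genotype, written N2ΔMy and shown as KO in the plots, both Notch2 alleles are floxed and are cut by Cre made under the Lyz2 promoter in myeloid cells. This promoter is also active in neutrophils and macrophages, so the deletion is not limited to monocytes. Mice received imiquimod (IMQ), a TLR7 agonist, as 50 mg per day of Aldara cream with 5% of the agent, and cells were taken on day 5. The control mice are labelled Sham, while the study's methods on RNA call them untreated. The groups were Ly6Chi cells of each genotype after Sham, Ly6Chi cells of each genotype after IMQ, and Ly6Clo cells of each genotype after IMQ. Ly6Clo cells after Sham were not analysed here, so IMQ could be compared with Sham in Ly6Chi cells alone.

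MS4A proteins cross the membrane in a four-pass arrangement with both ends in the cytoplasm, and several associate with immune receptors and change their signaling. The best known are Ms4a1, which encodes CD20 of B cells, and Ms4a2, which encodes the beta chain of the high-affinity IgE receptor of mast cells and basophils. In cells of the monocyte and macrophage lineage, MS4A4A associates with Dectin-1, the beta-glucan receptor encoded by Clec7a, and Ms4a7 is used as a marker of tissue macrophages and of macrophages at the borders of the brain. Ms4a4c is known as a gene induced by interferon.

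The family lies in 1 cluster on chromosome 19. By the positions in the deposited table (GRCm38.p6), its 19 genes spanned 0.679 Mb, chr19:10962293-11640851, and the 6 members lay within 284 kb of it, chr19:11321039-11604849. Ms4a7 (chr19:11321039-11336146) and Ms4a6d (chr19:11586604-11604849) are on the reverse strand at either end of this stretch. Between them, on the forward strand, lie Ms4a4a (chr19:11375523-11392790), Ms4a4c (chr19:11404770-11427246), Ms4a6c (chr19:11469366-11482192) and Ms4a6b (chr19:11516512-11531256). Of the other 13 genes of the family, Ms4a4b and Ms4a8a reached 50 counts in some library. Ms4a12, Ms4a13, Ms4a15 and Ms4a18 were at 0 in every library, and Ms4a1, Ms4a2, Ms4a3, Ms4a4d, Ms4a5, Ms4a10 and Ms4a14 were above 0 but stayed below 50. Ms4a1 reached at most 3 and Ms4a2 at most 21 in any library.

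Sequences upstream of the members are shown because the genes arose as close relatives and their RNA levels nevertheless took different courses. RefSeq windows of 300 bases, from 250 bases before the start of transcription to 50 bases after it (GRCm38.p6), were given for 5 members, Ms4a4a, Ms4a4c, Ms4a6b, Ms4a6c and Ms4a7, and for Ms4a4b and Ms4a8a. For Ms4a4c, Ms4a6b and the second window of Ms4a7, this start lay inside the span of the gene in the deposited table and not at its end. Capitals mark matches to the motifs searched, on either strand.
Ms4a4a, chr19:11375238-11375537, forward strand: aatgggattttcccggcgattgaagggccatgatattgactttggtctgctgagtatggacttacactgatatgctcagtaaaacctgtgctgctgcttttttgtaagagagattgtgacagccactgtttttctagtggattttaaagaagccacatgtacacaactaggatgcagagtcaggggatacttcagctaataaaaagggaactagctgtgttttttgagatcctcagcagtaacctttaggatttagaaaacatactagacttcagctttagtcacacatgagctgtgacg
Ms4a4c, chr19:11407411-11407710, forward strand: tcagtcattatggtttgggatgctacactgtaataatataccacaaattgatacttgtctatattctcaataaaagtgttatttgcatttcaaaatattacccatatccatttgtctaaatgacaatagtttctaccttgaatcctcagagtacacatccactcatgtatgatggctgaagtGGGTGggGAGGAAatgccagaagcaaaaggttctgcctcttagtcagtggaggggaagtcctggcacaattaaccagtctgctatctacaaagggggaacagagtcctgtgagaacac
Ms4a4b, chr19:11443308-11443607, forward strand: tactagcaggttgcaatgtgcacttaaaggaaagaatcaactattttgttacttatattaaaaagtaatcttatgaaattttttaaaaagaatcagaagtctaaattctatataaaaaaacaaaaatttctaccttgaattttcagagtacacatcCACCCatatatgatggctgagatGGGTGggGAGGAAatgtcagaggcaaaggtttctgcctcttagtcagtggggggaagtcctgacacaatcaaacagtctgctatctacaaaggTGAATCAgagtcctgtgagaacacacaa
Ms4a6c, chr19:11469118-11469417, forward strand: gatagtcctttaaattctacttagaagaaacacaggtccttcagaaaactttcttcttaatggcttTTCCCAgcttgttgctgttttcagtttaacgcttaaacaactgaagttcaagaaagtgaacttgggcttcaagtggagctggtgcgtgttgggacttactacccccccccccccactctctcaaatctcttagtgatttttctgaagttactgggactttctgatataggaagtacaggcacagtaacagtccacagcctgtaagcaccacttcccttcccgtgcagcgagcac
Ms4a6b, chr19:11518309-11518608, forward strand: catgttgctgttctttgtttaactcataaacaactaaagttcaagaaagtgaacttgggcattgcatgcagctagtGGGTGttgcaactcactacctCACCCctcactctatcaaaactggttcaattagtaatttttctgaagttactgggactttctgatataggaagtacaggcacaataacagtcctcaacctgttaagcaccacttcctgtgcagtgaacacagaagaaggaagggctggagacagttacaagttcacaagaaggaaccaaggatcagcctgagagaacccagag

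The motifs searched were the ISRE core (GAAA, any 2 bases and GAAA again), TGGGAA (Rbpj core), TGANTCA (AP-1), AAAGGTCA (NBRE), CACCC (Klf), GAGGAA (PU.1 core) and TTGCNNAA (C/EBP). No letters of these motifs overlapped in the 5 windows printed. Of 32851 RefSeq windows of the same length, 3.44% held the ISRE core, 25.6% the Rbpj core, 7.81% AP-1, 1.51% NBRE, 57.5% Klf, 28.3% the PU.1 core and 10.8% C/EBP. The window of Ms4a4c held GGGTG, the Klf motif on the other strand, at bases -68 to -64 from the start and GAGGAA at -61 to -56. Ms4a4b held the same pair of matches at -71 to -67 and -64 to -59. Both windows were alike over most of their length, with 237 identical bases in an alignment of 321 columns (73.8%) and a longest shared run of 20 bases, ttctgcctcttagtcagtgg. The windows of Ms4a6c and Ms4a6b shared a run of 48 bases, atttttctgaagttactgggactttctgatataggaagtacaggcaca, although they aligned over their whole length at 52.3% identity, within the range of 47.9% to 53.6% seen for all pairs of windows other than Ms4a4c and Ms4a4b. Ms4a6c held TTCCCA, the Rbpj core on the other strand, at -184 to -179, and Ms4a6b held the Klf motif at -174 to -170 and -153 to -149. No match was found in the window of Ms4a4a. The first of the windows of Ms4a7 held Klf at -35 to -31 and the PU.1 core at 43 to 48, and the second held AP-1 at -81 to -75.

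Values are normalized read counts, which the authors scaled between libraries and rounded to whole numbers. Differences are given as log2 fold changes of value + 1 with SE, and p-values are from limma, adjusted by the Benjamini-Hochberg method over 11230 genes that reached 50 in 1 or more libraries. A gene was called a differentially expressed gene (DEG) where the adjusted p was 0.05 or lower and the log2 fold change 0.6 or more in size. All 6 members entered the tests, but Ms4a7 reached 50 in 4 libraries, each of them from Ly6Chi cells after Sham. It therefore entered the tests through the groups where it was high, and its differences from those groups, and the counts of DEGs that hold it, are to be read with that. Fewer cells of a type in a sort and less RNA per cell cannot be told apart in these bulk samples.

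The labels were checked on Notch2, whose mean of 4 libraries was lower in N2ΔMy than in wt cells in each pairing. It was 9298 ± 669 against 15211 ± 1135 in Ly6Chi cells after Sham (SD, n = 4 in each group), 7616 ± 491 against 13908 ± 955 in Ly6Chi cells after IMQ and 10753 ± 950 against 17766 ± 1799 in Ly6Clo cells after IMQ. Inferred depth was 9.52M to 19.8M reads per library. Of the markers of sorted monocytes, the sum of Csf1r, Itgam and Cx3cr1 was at least 21839 in every library. Markers of B, T and natural killer cells summed to at most 173, 29 and 126 per library, and Cd3e and Cd3g were at 0 in all 24. Replicates 1 and 2 of each group belonged to a first series of libraries by their label numbers, and replicates 3 and 4 to a second, for which no meaning is given.

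The members differed widely in level. Scaled to gene length, Ms4a6c was the highest member in 5 of the 6 groups, with 3514 ± 250 counts per kb in wt Ly6Chi cells after Sham (SD, n = 4), where Ms4a4c had 1594 ± 209, Ms4a4a 1438 ± 204, Ms4a6b 876 ± 141, Ms4a6d 481 ± 71.8 and Ms4a7 11.1 ± 1.14. In wt Ly6Clo cells after IMQ, the highest mean was that of Ms4a4a, 2845 ± 815 per kb, which overlapped the 2294 ± 384 of Ms4a6c within 1 SD. Of the counts per kb of all 6 members together, Ms4a4a made up 18.2% in wt Ly6Chi cells after Sham and 46.0% in wt Ly6Clo cells after IMQ, while the share of Ms4a4c was 20.1% and 3.98% in these groups. In the N2ΔMy groups, the share of Ms4a4a was 17.1% in Ly6Chi cells after Sham and 36.6% in Ly6Clo cells after IMQ, and that of Ms4a4c was 21.0% and 7.35%. The level of Ms4a6c is given with a limit. On the opposite strand, the transcript RP23-32C18.5 (1 to 26 counts) overlaps the gene, and 47.7% of all stretches of 75 bases in Ms4a6c transcripts, the length of a read, also occur in it on either strand. Whether strand was used in counting is not given in the sources used here. For Ms4a4c, 3.78% of such stretches were shared with Ms4a4b, and for Ms4a4a and Ms4a7 no stretch was shared with another gene.

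**Figure D1:**
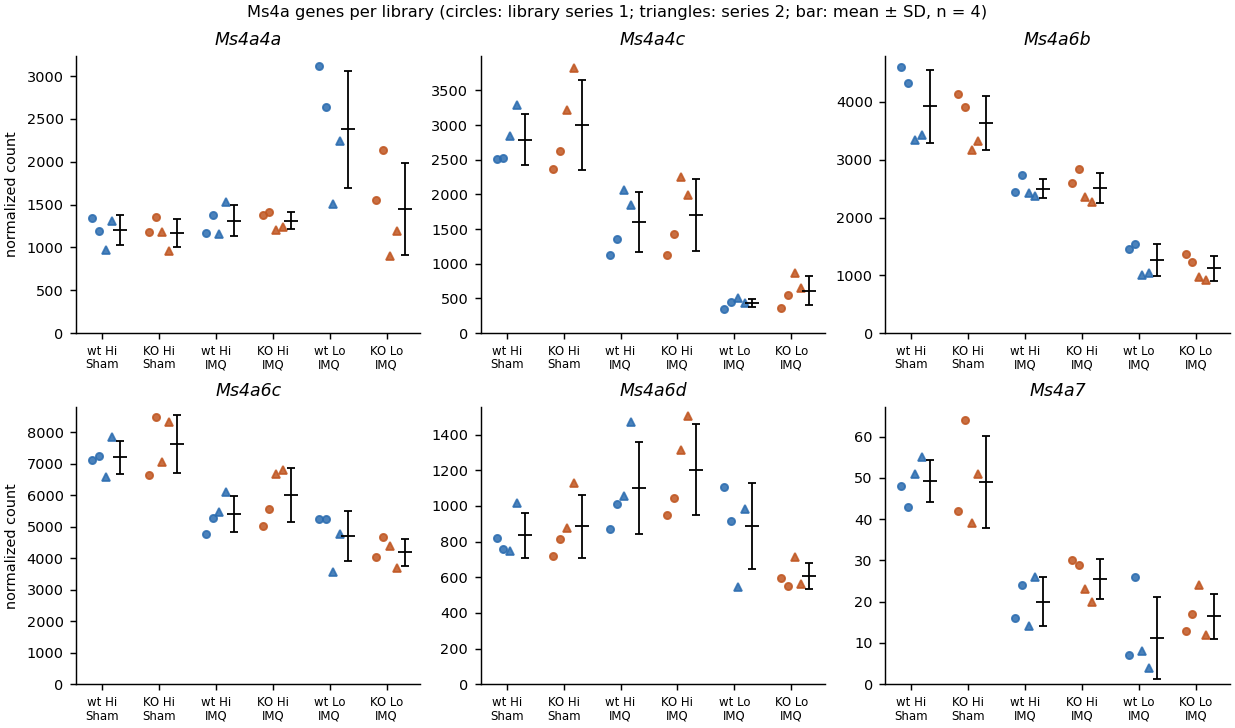
Normalized counts (vertical axes) of the 6 members in each library of the 6 groups (horizontal axes, wt blue, N2ΔMy orange and written KO, Hi for Ly6Chi and Lo for Ly6Clo), with circles for the first and triangles for the second library series and bars for mean ± SD of 4 libraries. Ms4a4a was highest in wt Ly6Clo cells, between 1510 and 3123, while Ms4a4c, Ms4a6b and Ms4a7 had their highest means in Ly6Chi cells after Sham.

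Over the 6 groups, all 6 members passed the F-test (adjusted p of 0.01 or lower), as did 43% of all genes tested. The group order of Ms4a4c and Ms4a6b was the same by subset and treatment, from Ly6Chi cells after Sham through Ly6Chi cells after IMQ to Ly6Clo cells after IMQ, with no overlap of libraries between these 3 steps. Within each step, the genotypes overlapped. Ms4a6c followed a like order of means, from 7633 ± 920 in N2ΔMy and 7204 ± 512 in wt Ly6Chi cells after Sham to 4704 ± 787 in wt and 4194 ± 429 in N2ΔMy Ly6Clo cells after IMQ, but every neighbour in that order overlapped the next. Ms4a6d and Ms4a4a took other orders. Ms4a6d was highest in Ly6Chi cells after IMQ and lowest in N2ΔMy Ly6Clo cells, whose 4 libraries lay below all those of wt Ly6Chi cells after Sham, the group next above. Ms4a4a was highest in wt Ly6Clo cells, and again each group in its order overlapped its neighbour.

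The effect of IMQ was first compared with Sham in wt Ly6Chi cells. Ms4a4c, Ms4a6b and Ms4a7 fell after IMQ, Ms4a6c was lower by less than the fold required, and Ms4a4a and Ms4a6d were not called. Thus 3 of 6 members were DEGs, all of them lower, beside 9.49% of all genes tested that were called and 5.07% that were called lower. The libraries of both groups did not overlap for 4 members, as for 21.5% of all genes. The median log2 fold change was -0.53 over the members and 0.01 over all genes.

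Ms4a4c, the interferon-induced member, was measured at 2508, 2520, 2848 and 3286 in the 4 wt Ly6Chi libraries after Sham. After IMQ it was at 1122, 2062 and 1846 in replicates 1, 3 and 4, with replicate 2 between the lowest and the middle of these. Each library after IMQ was below each library after Sham. The log2 fold change was -0.84 ± 0.18 (SE, adjusted p = 0.00965, limma), and without the filter on low values it was still -0.84 but not called (adjusted p = 0.0985, limma). Ms4a6b was at 4609, 4322, 3346 and 3433 after Sham and at 2441, 2743, 2430 and 2375 after IMQ, again with no overlap. Its log2 fold change of -0.64 ± 0.11 (adjusted p = 0.00352, limma) was near the required fold, and without Sham replicate 1 or 2 it was -0.56 or -0.59 and no longer called. In the second library series alone it was -0.50 and not called. Ms4a7, the macrophage marker, was low throughout, with 48, 43, 51 and 55 after Sham and 16, 24, 14 and 26 after IMQ, a log2 fold change of -1.30 ± 0.30 (adjusted p = 0.0151, limma). Within a single library series, the change of Ms4a7 was -1.17 and -1.42 and was not called in either.

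Ms4a6c, the most abundant member, was at 7127, 7259, 6591 and 7838 after Sham and at 4756, 5269, 5458 and 6118 after IMQ. These libraries did not overlap either, and the log2 fold change of -0.42 ± 0.09 had an adjusted p of 0.0122 in limma but stayed under the fold required of a DEG. Ms4a6d was at 818, 759, 747 and 1016 after Sham and at 870, 1011, 1054 and 1469 after IMQ. It was higher after IMQ in each of the 4 pairs of libraries with the same number, by 0.38 ± 0.16 on the log2 scale, with an adjusted p of 0.138 in limma. Ms4a4a, the Dectin-1 partner, was at 1343, 1195, 965 and 1307 after Sham and at 1171, 1375, 1160 and 1535 after IMQ, a log2 fold change of 0.13 with a 95% confidence interval of -0.16 to 0.41.

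In N2ΔMy Ly6Chi cells, the differences after IMQ had the same direction as in wt cells for all 6 members, of which 1 was a DEG, beside 8.7% of all genes tested and 4.55% called lower. Ms4a4c was at 2365, 2622, 3218 and 3822 after Sham and at 1122, 1434, 2257 and 1990 after IMQ, with no overlap and a log2 fold change of -0.85 ± 0.22 (adjusted p = 0.0300, limma). This call was lost, with adjusted p of 0.0539 to 0.0809, when Sham replicate 2, 3 or 4 or IMQ replicate 1 or 2 was left out, without the filter on low values (0.189) and without the trend of the variance (0.0689). Ms4a6b was at 4143, 3918, 3169 and 3322 after Sham and at 2601, 2839, 2356 and 2263 after IMQ, and its log2 fold change of -0.53 ± 0.11 (adjusted p = 0.0101, limma) stayed under the required fold. Ms4a7 was at 42, 64, 39 and 51 after Sham and at 30, 29, 23 and 20 after IMQ, with no overlap, a log2 fold change of -0.91 ± 0.28 and an adjusted p of 0.0582. For 3 members the libraries did not overlap, beside 19.5% of all genes.

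The remaining members of N2ΔMy Ly6Chi cells were not called after IMQ. Ms4a6c was at 6636, 8484, 7071 and 8342 after Sham and at 5022, 5579, 6676 and 6792 after IMQ, a log2 fold change of -0.35 ± 0.12 (adjusted p = 0.0959, limma). Ms4a6d was at 722, 814, 877 and 1131 after Sham and at 951, 1045, 1317 and 1506 after IMQ. The groups overlapped, and it was again higher after IMQ, by 0.44 ± 0.17 on the log2 scale (adjusted p = 0.128, limma). Without 1 library this value was 0.32 to 0.56. Ms4a4a was at 1177, 1358, 1185 and 959 after Sham and at 1375, 1411, 1208 and 1241 after IMQ, a log2 fold change of 0.17 with a 95% confidence interval of -0.08 to 0.42. The difference between the genotypes in the effect of IMQ was tested as an interaction, in which 0 members and 0% of all genes were called in limma. No member had an unadjusted p under 0.05, and the interaction estimates of the members lay between -0.01 and 0.39.

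Other markers moved with the IMQ comparison in Ly6Chi cells. The summed neutrophil list was 0 to 57 in the 8 libraries after Sham and 913 to 5191 in the 8 after IMQ. After IMQ, S100a8 and S100a9 made up nearly all of it, while Ly6g, its defining surface marker, was at most 1 in every library. The dendritic cell list summed to 775 to 1574 after Sham and to 253 to 478 after IMQ, with Cd209a at a mean of 428 and 12.3 in wt cells. The macrophage list summed to 1940 to 2094 after Sham and 2190 to 2972 after IMQ in wt cells, with 1 of 6 tested genes called with the replicate block alone (limma), and to 2107 to 2477 and 3250 to 4172 in N2ΔMy cells, where Mertk and Adgre1 rose and Cd163 fell. Of the Ly6Clo markers, Spn and Cd274 rose in wt cells, and of the Ly6Chi markers, Vcan rose in both genotypes. Among the markers of sorted monocytes, Cx3cr1 fell in both genotypes, by 0.67 in each, and Itgam rose in N2ΔMy cells by 0.71. In N2ΔMy cells, Klrd1 of the natural killer cell list fell from a mean of 15.8 to 2.75, and Ppbp of the platelet list rose from 2.00 to 17.5. The part of these cells in the lower Ms4a4c, Ms4a6b and Ms4a7 values was not tested.

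**Figure D2:**
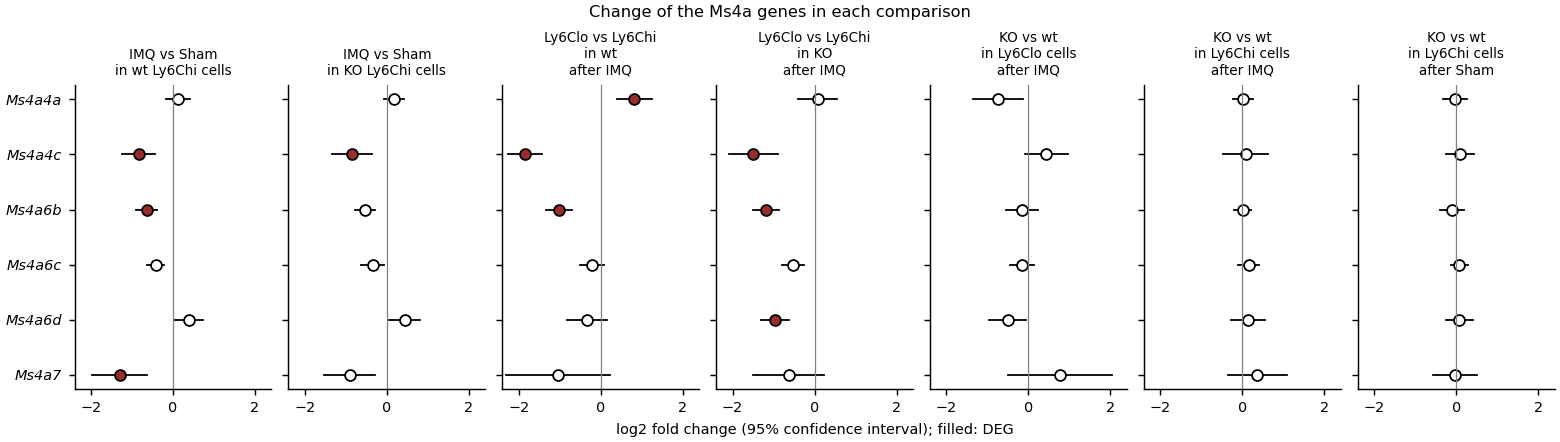
Log2 fold change (horizontal axes) of each member in the 7 comparisons of 2 groups, with 95% confidence intervals from limma and filled points for DEGs. The fits shown did not use the replicate block. Filled points appear in the first 4 comparisons, on treatment and subset, and none in the 3 comparisons of N2ΔMy with wt cells. With the block, Ms4a4a was a DEG between genotypes in Ly6Clo cells.

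The subsets were then compared after IMQ. In wt mice, Ms4a4a rose from Ly6Chi to Ly6Clo cells while Ms4a4c and Ms4a6b fell, and Ms4a6c, Ms4a6d and Ms4a7 were not called. These were 3 of 6 members, beside 24.6% of all genes tested, of which 11.9% were called higher and 12.7% lower. Ms4a4a was at 1171, 1375, 1160 and 1535 in wt Ly6Chi cells and at 3123, 2638, 1510 and 2244 in wt Ly6Clo cells. Its mean was 1.82-fold higher in Ly6Clo cells, although the lowest Ly6Clo library lay just below the highest Ly6Chi library. The log2 fold change was 0.82 ± 0.20 (adjusted p = 0.00750, limma), with 1.18 in the first library series and 0.46 in the second, where it was not called, and it was not called without the filter on low values (adjusted p = 0.0763, limma). Each Ly6Clo library was above the Ly6Chi library of the same number.

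Ms4a4c fell by 1.86 on the log2 scale from wt Ly6Chi to Ly6Clo cells, the largest difference of any member in any comparison. It was at 351, 446, 499 and 428 in Ly6Clo cells, against 1122 to 2062 in Ly6Chi cells, and the mean was 3.70-fold lower (adjusted p = 2.78e-05, limma). Ms4a6b was at 1456, 1537, 1003 and 1044 in Ly6Clo cells, against 2375 to 2743 in Ly6Chi cells, a log2 fold change of -1.01 ± 0.14 (adjusted p = 2.96e-04, limma). These 2 members were the ones whose libraries did not overlap, as was the case for 35.4% of all genes. Ms4a6c was at 5239, 5244, 3573 and 4758 in Ly6Clo cells, with a log2 fold change of -0.21 and a 95% confidence interval of -0.50 to 0.08. Ms4a6d was at 1109, 914, 543 and 981, with a log2 fold change of -0.33 and an interval of -0.82 to 0.15. For both, the values overlapped those of Ly6Chi cells, and the sign was positive in the first library series, 0.07 and 0.10, and negative in the second, -0.49 and -0.77. Ms4a7 was at 7, 26, 8 and 4 in Ly6Clo cells, with an interval of -2.31 to 0.23.

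In N2ΔMy mice, 3 of 6 members were DEGs between the subsets, all lower in Ly6Clo cells, beside 17.4% of all genes tested and 8.38% called lower. Ms4a4c was at 364, 552, 870 and 647 in Ly6Clo cells, against 1122 to 2257 in Ly6Chi cells, a log2 fold change of -1.50 ± 0.27 (adjusted p = 0.00209, limma). Ms4a6b was at 1373, 1225, 962 and 913 in Ly6Clo cells, against 2263 to 2839, a log2 fold change of -1.18 ± 0.14 (adjusted p = 1.28e-04, limma). Ms4a6d was at 597, 552, 712 and 561 in Ly6Clo cells and at 951, 1045, 1317 and 1506 in Ly6Chi cells. It was 1.99-fold lower in Ly6Clo cells, with no overlap and a log2 fold change of -0.97 ± 0.15 (adjusted p = 8.87e-04, limma). Ms4a6c was at 4030, 4673, 4386 and 3685 in Ly6Clo cells, below all 4 Ly6Chi libraries, and its log2 fold change of -0.52 ± 0.12 (adjusted p = 0.0103, limma) stayed under the required fold. With it, 4 members did not overlap, beside 27.8% of all genes.

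Ms4a4a was not called between the subsets of N2ΔMy mice. It was at 1553, 2140, 898 and 1190 in Ly6Clo cells and at 1375, 1411, 1208 and 1241 in Ly6Chi cells. The log2 fold change was 0.07 with an interval of -0.41 to 0.55, and it was 0.39 in the first library series and -0.24 in the second. The Ly6Clo libraries thus lay on both sides of the Ly6Chi libraries. Ms4a7 was at 13, 17, 24 and 12 in Ly6Clo cells, a log2 fold change of -0.63 with an interval of -1.49 to 0.23.

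Markers of other cells moved with the comparison of subsets after IMQ. The neutrophil list summed to 1163 to 4914 in wt Ly6Chi and 15 to 229 in wt Ly6Clo libraries, and in N2ΔMy mice to 913 to 5191 and 85 to 221, with Ly6g at 0 in these groups. The macrophage list summed to 2190 to 2972 in wt Ly6Chi and 3998 to 6136 in wt Ly6Clo libraries, and to 3250 to 4172 and 7688 to 11766 in those of N2ΔMy mice. Of its 6 tested genes, 2 rose in wt and 5 in N2ΔMy mice, beside 24.6% and 17.4% of all genes called. Among them, C1qa, C1qc and Mertk had means of 249.75, 423.75 and 250.5 in N2ΔMy Ly6Clo cells and at most 33.25 in any other group. They thus entered the tests mainly through the group where they were high, and the count of 5 is to be read with that. The dendritic cell list summed to 253 to 478 and 80 to 525 in wt and to 288 to 408 and 195 to 1563 in N2ΔMy mice. Of its 4 tested genes, Zbtb46 rose and Flt3 fell in wt mice, and 2 rose in N2ΔMy mice. Klrd1, of the natural killer cell list, rose in N2ΔMy mice from a mean of 2.75 to 54.8, with the other 3 genes of that list at 0 in every N2ΔMy Ly6Clo library. It too entered the tests mainly through that group, with a mean of at most 15.75 in any other. The part of these cells in the values of the members was not tested.

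The effect of the Notch2 mutation was compared within each group. In Ly6Clo cells after IMQ, 0 of 6 members were DEGs in limma without the replicate number in the model, beside 4.78% of all genes tested, and the libraries of both genotypes overlapped for every member, while 12.8% of all genes did not overlap. An unadjusted p under 0.05 was found for 2 members, Ms4a4a and Ms4a6d. With the replicate number as a block 1 member, Ms4a4a, was a DEG, beside 8.36% of all genes. With the library series as a covariate in place of the number, Ms4a4a was a DEG as well (adjusted p = 0.00470, limma). The labels give no pairs, and with the series removed, same-numbered libraries of this comparison had r over genes of 0.168 and 0.204. Ms4a4a was at 3123, 2638, 1510 and 2244 in wt and at 1553, 2140, 898 and 1190 in N2ΔMy Ly6Clo cells. Each mutant library was below the wt library of the same number. The log2 fold change was -0.74 ± 0.27 (adjusted p = 0.159 without and 7.59e-04 with the block, limma), and it was -0.65 in the first and -0.83 in the second library series. An exact two-sided permutation test that did not use the replicate numbers gave p = 0.0857.

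Ms4a4c and Ms4a6d were not called in this comparison with either model. Ms4a4c was higher in the mutant library of each of the 4 same-numbered pairs. Its log2 fold change of 0.44 (interval -0.08 to 0.95, adjusted p = 0.338 without and 0.0384 with the block, limma) was under the required fold. Without 1 library this value of Ms4a4c was 0.24 (without N2ΔMy replicate 3) to 0.66 (without N2ΔMy replicate 1). Ms4a6d was at 1109, 914, 543 and 981 in wt and at 597, 552, 712 and 561 in N2ΔMy cells. Of the 4 wt libraries 3 stood above every mutant library, and wt replicate 3 stood below all of them. The log2 fold change was -0.51 ± 0.20 (adjusted p = 0.189, limma), and without wt replicate 3 it was -0.73 (adjusted p = 0.00884, limma). Ms4a6b was lower in the mutant library of each of the 4 same-numbered pairs. Its log2 fold change of -0.17 (-0.27 to -0.06 without 1 library) was not called with or without the block. Ms4a6c had a log2 fold change of -0.15 (-0.28 to -0.09 without 1 library), and Ms4a7 one of 0.77 with an interval of -0.50 to 2.04. The value of Ms4a7 was 0.44 without wt replicate 4 and 1.25 without wt replicate 2.

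Markers of other monocytes and of macrophages moved with this comparison. The 5 Ly6Chi markers summed to 524 to 1892 in the wt and to 7117 to 10009 in the N2ΔMy Ly6Clo libraries, and the 6 Ly6Clo markers to 84696 to 100107 and to 43719 to 55799. The 8 macrophage markers, of which 6 were tested, summed to 3998 to 6136 and to 7688 to 11766, with Vcam1 and Timd4 at most 4 in every library and C1qb at a mean of 71.8 in wt and 1023 in N2ΔMy cells. The dendritic cell list summed to 80 to 525 in wt and 195 to 1563 in N2ΔMy libraries, and the natural killer cell list to 0 to 29 and 10 to 126. For each list, 1 gene was called with the replicate block alone (limma), beside 8.36% of all genes. That of the natural killer cell list, Klrd1, entered the tests mainly through N2ΔMy Ly6Clo cells. The part of these cells in the values of Ms4a4a, Ms4a4c and Ms4a6d was not tested.

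In Ly6Chi cells, no member was called between the genotypes. After IMQ, 0 of 6 members were DEGs in limma, beside 0.0267% of all genes tested, and after Sham 0 of 6, beside 0.0178%. The members had no unadjusted p under 0.05 in either comparison, and no DEG with the replicate block, beside 0.481% of all genes after IMQ and 0.0267% after Sham. Their log2 fold changes lay between 0.01 and 0.36 after IMQ and between -0.11 and 0.09 after Sham, with confidence intervals that together spanned -0.47 to 1.08 and -0.57 to 0.52. The widest of these intervals were those of Ms4a7. Markers differed here as well. The Ly6Clo markers summed to 15425 to 17209 in wt and 9705 to 12298 in N2ΔMy cells after Sham. After IMQ they summed to 13843 to 24444 and 8350 to 15612, and 3 of 6 were called with the replicate block alone (limma). The macrophage list summed to 1940 to 2094 and 2107 to 2477 after Sham, and to 2190 to 2972 and 3250 to 4172 after IMQ. The part of these cells was not tested.

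Whether the effect of the mutation differed between Ly6Clo and Ly6Chi cells after IMQ was tested as an interaction, in which 0 of 6 members were called, beside 1.03% of all genes. The estimate for Ms4a4a was -0.75 ± 0.32 (unadjusted p = 0.0329, adjusted p = 0.520, limma) and that for Ms4a6d -0.64 ± 0.29 (unadjusted p = 0.0421, adjusted p = 0.563, limma). The other 4 members had an unadjusted p above 0.05. With the replicate block, the lowest adjusted p of a member was 0.0900, that of Ms4a4a.

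Differences between members within a library do not depend on the scaling between libraries, and show how one member stood against another but not the course of either. The difference of Ms4a4a over Ms4a4c, on the log2 scale and not scaled to length, had a mean of -1.22 ± 0.29 in wt Ly6Chi cells after Sham (SD, n = 4), -0.25 ± 0.41 after IMQ and 2.42 ± 0.64 in wt Ly6Clo cells after IMQ. In N2ΔMy cells these means were -1.35 ± 0.48, -0.33 ± 0.56 and 1.24 ± 0.96. Of the N2ΔMy Ly6Clo libraries, replicate 3 was the lowest, at 0.05, and lay within the range of the Ly6Chi cells after IMQ. The difference of Ms4a6d over Ms4a6b had means of -2.23 ± 0.35, -1.21 ± 0.36 and -0.53 ± 0.36 in the 3 wt groups, and -2.05 ± 0.43, -1.08 ± 0.44 and -0.87 ± 0.37 in those of N2ΔMy mice. For Ms4a6c over Ms4a6b, the means were 0.89 ± 0.25 in wt Ly6Chi cells after Sham and 1.91 ± 0.19 in wt Ly6Clo cells after IMQ.

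**Figure D3:**
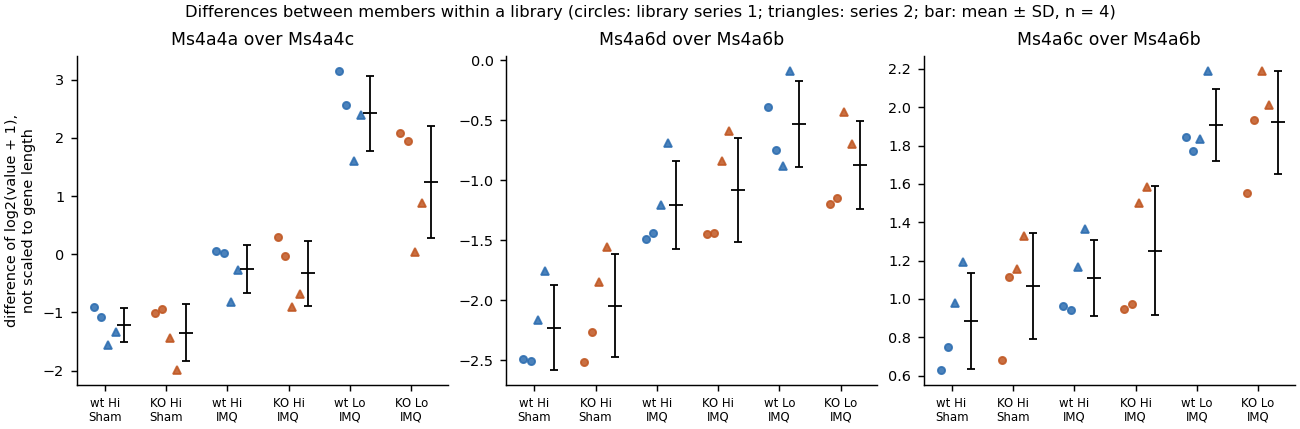
Difference of log2(value + 1) between pairs of members in each library (vertical axes, not scaled to gene length) over the 6 groups (horizontal axes), with circles for the first and triangles for the second library series and bars for mean ± SD of 4 libraries. The difference of Ms4a4a over Ms4a4c ran from -1.99 in Ly6Chi cells after Sham to 3.15 in wt Ly6Clo cells after IMQ.

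Across the 24 libraries, which share group and library series, the Pearson correlation of log2 values between members is given as a description. Ms4a4c, Ms4a6b and Ms4a6c went together, with r = 0.85 for each of the 3 pairs, and Ms4a7 had r = 0.81, 0.81 and 0.77 with them. Ms4a4a had r = -0.70 with Ms4a4c, -0.53 with Ms4a7, -0.41 with Ms4a6b, -0.29 with Ms4a6c and 0.03 with Ms4a6d. Ms4a6d had r = 0.51 with Ms4a6c, 0.38 with Ms4a4c, 0.35 with Ms4a6b and 0.11 with Ms4a7. Among all genes tested, those most like Ms4a4c were Ankle2 (r = 0.98), Ifi27l2a, a gene induced by interferon (0.97), and Ogfr (0.97). For Ms4a6b they were Creb3l2 (0.97), Tgfb1 (0.97) and Atp10a (0.97), and for Ms4a6c Glipr1 (0.91), Tapbp (0.90) and Asap2 (0.90). Ms4a4a was most like Man2a1 (0.87), Rbl2 (0.85) and Adipor1 (0.85). Ms4a6d was most like Taldo1 (0.88), Rps16 (0.83) and Tmem71 (0.80), and Ms4a7 like Abhd15 (0.92), Plppr4 (0.91) and Idh2 (0.90).

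The nearest relatives of the members were read in the same way. Ms4a4b, which is known from T cells and shares promoter sequence with Ms4a4c, was low, with means of 92.3 ± 18.1 in wt Ly6Chi cells after Sham, 51.3 ± 6.65 after IMQ and 13 ± 7.70 in wt Ly6Clo cells after IMQ (SD, n = 4). Like Ms4a4c it fell after IMQ in wt cells, by 0.83 on the log2 scale (adjusted p = 0.0292, limma), and from wt Ly6Chi to Ly6Clo cells, by 2.04 (adjusted p = 0.00301, limma), and its r with Ms4a4c was 0.96. It reached 50 in 12 libraries, all of them of Ly6Chi cells, so that it too entered the tests through the groups where it was high. The stretches of 75 bases shared by Ms4a4b with Ms4a4c were 0.746% of its own. Ms4a8a, reported in alternatively activated macrophages, was at 466, 557, 555 and 615 in wt Ly6Chi cells after IMQ and at 53, 36, 85 and 45 in wt Ly6Clo cells. In N2ΔMy mice, it was at 679, 741 and 664 in replicates 2 to 4 of Ly6Chi cells, still higher in replicate 1, and at 496, 511, 346 and 304 in Ly6Clo cells. The wt Ly6Clo libraries were below every library of the other groups, and N2ΔMy Ly6Clo cells had a 7.57-fold higher mean than wt Ly6Clo cells, a log2 fold change of 2.93 ± 0.28 (adjusted p = 2.58e-04, limma). The interaction of genotype and subset was 2.50 ± 0.31 (adjusted p = 3.78e-04, limma).

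Tmem176a and Tmem176b, related four-pass proteins from chromosome 6 that are known from dendritic cells, fell after IMQ in Ly6Chi cells of both genotypes. The log2 fold changes in wt cells were -1.27 ± 0.13 and -1.47 ± 0.08 (adjusted p = 2.18e-04 and 8.72e-06, limma). In Ly6Clo cells they were higher in N2ΔMy than in wt mice, by 0.84 ± 0.20 and 1.05 ± 0.17 (adjusted p = 0.0356 and 0.00438, limma). These genes overlap each other on opposite strands, so that their counts may not be independent.

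**Figure D4:**
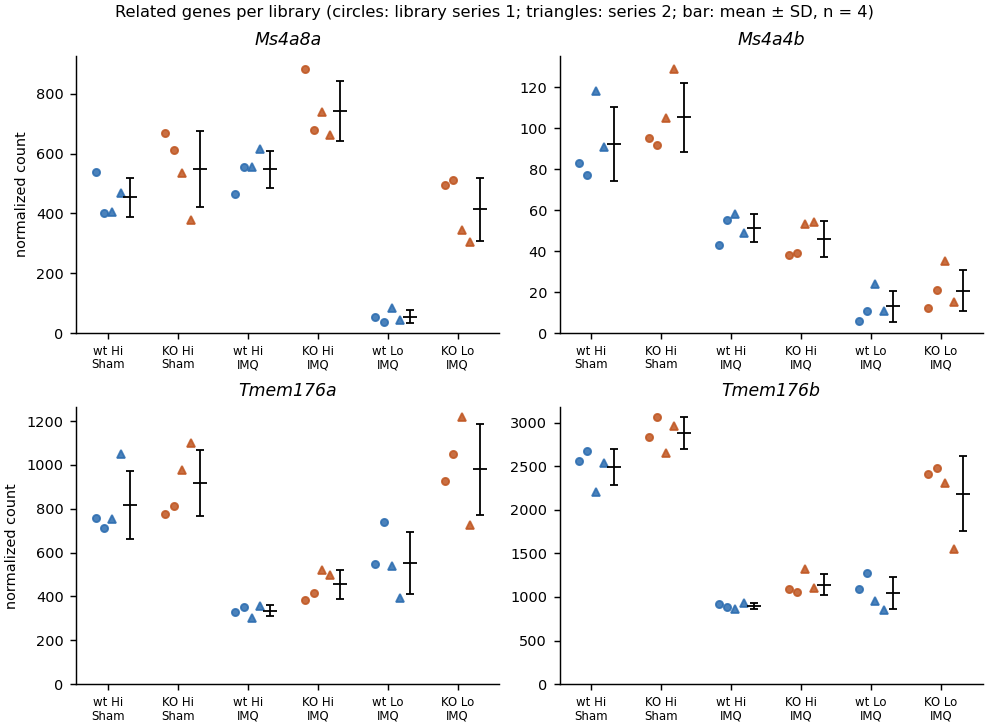
Normalized counts (vertical axes) of Ms4a8a, Ms4a4b, Tmem176a and Tmem176b in each library of the 6 groups (horizontal axes), drawn as for the 6 members. Ms4a8a was at 36 to 85 in the 4 wt Ly6Clo libraries and at 304 to 511 in the 4 N2ΔMy Ly6Clo libraries.

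A pair of gene lists was read beside the members, one of Dectin-1 and partners of ITAM-bearing adaptors and one of tetraspanins, another group of four-pass proteins. Of 14 genes on the first list 13 were tested. From wt Ly6Chi to Ly6Clo cells, 3 rose and 2 fell, beside 24.6% of all genes called, with a median log2 fold change of 0.09 beside -0.01 over all genes. Clec7a, which encodes Dectin-1, fell from 4064 ± 186 to 532 ± 183 (SD, n = 4), a log2 fold change of -2.99 (adjusted p = 1.36e-06, limma), opposite in direction to Ms4a4a. Fcgr4, an activating IgG receptor, rose by 4.25 (adjusted p = 1.68e-06, limma), and Fcer1g, the shared gamma chain of Fc receptors, by 0.85 (adjusted p = 0.00289, limma). Trem2, a lipid receptor of macrophages, fell to a mean of 4.00, a log2 fold change of -5.08 (adjusted p = 2.40e-06, limma). In N2ΔMy cells, 1 gene rose, Fcgr4, and 2 fell, Clec7a and Trem2, beside 17.4% of all genes called, with a median of 0.21.

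Between genotypes in Ly6Clo cells, 2 genes of this list were higher in N2ΔMy cells, Clec7a by 1.19 ± 0.20 and Fcgr1 by 1.16 ± 0.18, and Fcgr4 was lower by 0.85 ± 0.20 (adjusted p = 0.00546, 0.00400 and 0.0333, limma). These were 3 of 13 genes, beside 4.78% of all genes, and 4 with the replicate block, beside 8.36%. The median was -0.04. For Clec7a, the interaction of genotype and subset was 1.06 ± 0.24 (adjusted p = 0.0375, limma), the 1 gene of the list called, beside 1.03% of all genes. With the block 2 were called, beside 2.41%. After IMQ, Fcgr4 rose and Fcgr1 fell in wt Ly6Chi cells, by 1.94 and 1.15, and in N2ΔMy cells Fcgr4 and Trem2 rose and Fcgr1 fell, beside 9.49% and 8.7% of all genes called. In Ly6Chi cells no gene of the list was called between the genotypes, beside 0.0267% of all genes after IMQ and 0.0178% after Sham.

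Of 16 tetraspanins 13 were tested. From wt Ly6Chi to Ly6Clo cells 4 rose and 1, Tspan3, fell, beside 11.9% of all genes called higher and 12.7% lower, with a median of 0.40. Cd9 rose from 88.8 ± 20.0 to 1041 ± 398 and Cd82 from 553 ± 108 to 3683 ± 868 (SD, n = 4), log2 fold changes of 3.47 and 2.73 (adjusted p = 7.67e-06 and 1.40e-06, limma). In N2ΔMy mice 3 rose and 1 fell, beside 17.4% of all genes called, with a median of 0.36. Between genotypes in Ly6Clo cells, Cd82 and Tspan32 were lower in N2ΔMy cells, by 1.01 and 0.91, and Cd151 was higher by 0.67 (adjusted p = 0.0106, 0.0308 and 0.0411, limma), beside 4.78% of all genes called. With the replicate block 6 of 13 were called, beside 8.36% of all genes. After IMQ, 3 rose and 2 fell in wt Ly6Chi cells, among them Cd9 (1.90) and Tspan33 (-1.83), and in N2ΔMy cells 1 rose, Cd81, and 2 fell, Tspan33 and Tspan17, beside 9.49% and 8.7% of all genes called.

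Neighbours of the cluster were read to see whether the stretch of chromosome moved as a whole. Of 55 genes between the outermost Ms4a genes or within 200 kb of them, 9 that are not of the family were tested. After IMQ in wt Ly6Chi cells 1 of them was called, RP23-52N2.1, which was higher by 1.01, beside 9.49% of all genes. In N2ΔMy Ly6Chi cells 0 of 9 were called after IMQ, beside 8.7% of all genes. RP23-32C18.6, which lies between Ms4a6c and Ms4a6b, was called with the replicate block alone, lower by 0.94 in wt and by 0.96 in N2ΔMy cells (adjusted p = 0.0828 and 0.0892 without and 0.00342 and 0.0248 with the block, limma). From wt Ly6Chi to Ly6Clo cells, Stx3, which encodes a syntaxin of vesicle fusion, and Ccdc86 fell by 3.65 and 1.25, and Slc15a3, which encodes a transporter of peptides and histidine, rose by 0.80 (adjusted p = 2.90e-06, 0.00162 and 0.00192, limma). These were 3 of 9 neighbours, beside 24.6% of all genes. With the block RP23-52N2.1 was called as well, lower by 0.92 (adjusted p = 0.0576 without and 4.05e-04 with the block, limma). Stx3 was at a mean of 875 ± 103 in wt Ly6Chi and 73.5 ± 34.1 in wt Ly6Clo cells (SD, n = 4). In N2ΔMy cells 4 neighbours were called, Slc15a3 higher and Stx3, RP23-52N2.1 and Ccdc86 lower, beside 17.4% of all genes. Between genotypes, 0 of 9 neighbours were called in limma in any of the 3 comparisons. The shares of all genes called were 4.78% in Ly6Clo cells and 0.0267% and 0.0178% in Ly6Chi cells after IMQ and Sham. At such low shares, 0 of 9 does not show whether the stretch moved. For 1 neighbour, Slc15a3 in Ly6Chi cells after IMQ, the unadjusted p was under 0.05 (0.0249, limma).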

How the data were processed

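RNA of sorted monocyte subsets was sequenced in 24 libraries. Stranded total RNA libraries (SMARTer Pico v2) gave single reads of 75 bases, which the authors processed with nf-core/rnaseq on GRCm38.p6 with the GENCODE annotation of release M17. The submitters' processing notes name bcl2fastq, Trim Galore 0.4.4, STAR 2.5.3a and DESeq2. Whether strand was used in counting is not given in the sources used here. The deposited values are a score per gene and library, counts that the authors normalized with DESeq2 and rounded to whole numbers, so count models were not used. Columns of the authors' own comparisons (fold changes, errors, Wald statistics and p-values) were not used.

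Values of the 53715 genes were compared as log2(value + 1) with limma 3.58.1 in R 4.3.3 (lmFit and eBayes with a trend). Each fit used the 8 libraries compared, the 16 libraries of an interaction or, in the F-test, all 24, over 11230 genes that reached 50 in 1 or more libraries, with Benjamini-Hochberg adjustment. DEGs had an adjusted p of 0.05 or lower and a log2 fold change of 0.6 or more in size, or in the F-test an adjusted p of 0.01 or lower. Two-sided exact permutation tests used the 70 splits of 8 libraries, whose smallest p is 0.0286. The pipeline was tested on simulated data. Depth was inferred from the whole numbers that occur among the rounded values of each library. The design names 4 biological replicates per group. It does not say that each was a separate mouse, so p-values measure the spread between these samples.

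The replicate numbers of the labels were checked as pairs. In all 7 comparisons, libraries with the same number deviated together from their group means (r over genes of 0.160 to 0.619). This r also holds the library series, so it cannot by itself show pairs. With the mean of each group and series removed, same-numbered libraries had r of -0.116 to 0.263. For IMQ against Sham these values were 0.001 and 0.021 in wt and 0.094 and -0.116 in N2ΔMy cells. The same number was the best match for 2 of 4 libraries in both IMQ comparisons and between genotypes in Ly6Chi cells after IMQ. In the other comparisons it was the best match for 4 of 4. The labels do not say what a number marks, so pairs of samples are not established.

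The members and gene lists were chosen with earlier results of these data known. The text names the 6 members in every comparison, other genes of the family and Tmem176a and Tmem176b where they reached 50 in any library, up to 4 called genes of each list with the largest change per comparison, called neighbours within 200 kb and the 3 genes with the highest r to each member. Alternatives were TMM scaling (computed from its formula), no filter or a filter of 50 reached in 4 or more libraries, a pseudocount of 0.1, values under 1.1 set to 1.1, no trend, the library series or the replicate block in the model, all 24 libraries in 1 fit, each library series alone and each library left out. Promoter windows are from RefSeq (GRCm38.p6) and were aligned globally with match 1, mismatch -1, gap opening -2 and gap extension -0.5. Shared stretches of 75 bases were counted on both strands in transcripts of a later GENCODE release than the authors used. No protein sequence was used.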

Additional observations from a re-analysis of the deposited data

Results flagged for a closer look

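The effect of the Notch2 mutation on Ms4a8a differed between Ly6Clo and Ly6Chi cells after IMQ, by an interaction of 2.50 on the log2 scale (SE 0.31, adjusted p = 3.78e-04, limma, 4 libraries in each group). The effect was 2.93 in Ly6Clo cells, higher in 4 of 4 same-numbered pairs, and 0.43 in Ly6Chi cells. The summed Ly6Chi markers moved in the same comparison, from 524 to 1892 in wt to 7117 to 10009 in N2ΔMy Ly6Clo libraries, and the macrophage markers from 3998 to 6136 to 7688 to 11766. Their part in this result was not tested.

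Tmem176a in wt Ly6Chi cells after Sham had 1 library, replicate 4, far from the others of its group, at 1050 against 714 to 756. It was the only one of 60 groups of 4 libraries checked, over the 6 members and 4 related genes, and chance gives about 1 in 20.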

How the results depend on the processing

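Of 720 results of single members under the alternatives, 692 kept their direction and their side of the thresholds, 15 were no longer called, 9 were newly called and 4 changed sign. None of those that changed sign was a DEG: Ms4a4a from Ly6Chi to Ly6Clo cells of N2ΔMy mice was -0.14 without N2ΔMy Ly6Clo replicate 2 (-0.14 to 0.28 without 1 library) and -0.24 in the second library series alone, and in wt mice Ms4a6c was 0.066 and Ms4a6d 0.10 in the first series alone. The number of members called after IMQ in wt Ly6Chi cells was 3, and 1 in the second series alone. In N2ΔMy Ly6Chi cells it was 1, with 0 without a filter, 2 with the library series as a covariate (Ms4a4c and Ms4a7) and 0 to 1 without 1 library. Between genotypes in Ly6Clo cells it was 0, with 1 under the replicate block, the series covariate and all 24 libraries (Ms4a4a each time), 1 in the first series alone (Ms4a6d) and 0 to 1 without 1 library. Without the trend, Ms4a7 was called in place of Ms4a4c after IMQ in N2ΔMy Ly6Chi cells (adjusted p = 0.0218, limma). Between wt subsets, Ms4a7 was newly called with all 24 libraries in the fit (-1.04, adjusted p = 0.0385, limma). Between N2ΔMy subsets, Ms4a6c was newly called in the second series alone (-0.74, adjusted p = 0.00125, limma). Without a filter, Ms4a4c after IMQ in wt cells (log2 fold change -0.84) and Ms4a4a between wt subsets were not called (adjusted p = 0.0985 and 0.0763, limma). For Ms4a4a between wt subsets the adjusted p was 0.177 in the second series alone, and without 1 library the log2 fold change stayed at 0.67 to 1.02. The cause of these changes was not tested, except that a series alone holds 4 libraries and a fit without a filter tests more genes.

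The replicate block changed no other call of a member. Over all genes, the count of DEGs between genotypes in Ly6Clo cells was 537, with 939 under the block, 830 with the series covariate, 215 without a filter, 180 in the second series alone and 358 to 560 without 1 library. In Ly6Chi cells after IMQ it was 3, with 54 under the block and 0 to 4 without 1 library. For the interaction of genotype and subset it was 116, with 271 under the block, 210 with the series covariate and 75 to 173 without 1 library. In wt Ly6Chi cells after IMQ it was 1066, with 592 in the second series alone. At a depth of 9.52M to 19.8M reads, Ms4a7 was at 4 to 64 counts.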
